A study of Mus musculus with 18 samples.

Results

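The genes described here are L3mbtl2, Pcgf6, E2f6 and Rybp, 4 of the 64 genes on a focused mouse array of Polycomb and Trithorax group genes. They were chosen by symbol as subunits of PRC1.6, a variant form of Polycomb repressive complex 1, and all 4 were found, with 2 spots each among the 117 gene spots. The RNA came from mesenchymal stem cells (MSC) grown from inguinal fat pads of FVB mice, an inbred laboratory strain, with no treatment or altered allele named in the labels. The mice were 1, 3, 6, 12 or 24 months old, with 4, 3, 3, 3 and 2 samples, and 3 of the 15 samples have a second array, so 18 arrays were used. Samples bear a number within their age. The labels name a mouse as the source of each sample but do not say whether each sample is a separate animal, so p-values measure the spread between these samples. The cells were cultured, up to the fifth passage, so the values are those of cells that have divided in a dish.

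Polycomb repressive complex 1 keeps genes silent by attaching ubiquitin to histone H2A through its catalytic subunits RING1 and RNF2. Variant complexes differ from the canonical ones in the PCGF protein at their core and carry RYBP or its relative YAF2 in place of a chromobox protein. PRC1.6 is the variant built on PCGF6, and it is known for silencing germ-line and meiotic genes in embryonic stem cells, where E2F6 and the MGA and MAX pair bring it to DNA and L3MBTL2 binds histones and helps to compact chromatin.

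L3mbtl2 was the one gene of the 4 detected at every age, at 24 months by its lower spot alone. Its mean was highest at 3 months and lowest at 24 months, and both 24-month samples lay below all 1-month samples, but no comparison passed the threshold after adjustment. Pcgf6, E2f6 and Rybp were each detected in 1 of 15 samples, and each in a sample of a different age. They are among the 11 of 64 genes on the array that were detected in exactly 1 sample. At 24 months the upper spot of L3mbtl2 was called absent on both arrays and the lower spot present on both. There the lower spot had only 1.08 and 1.22 times the signal of its local background. From the lower spot alone the samples of 24 months and 1 month overlapped, and the test of the difference between the spots did not pass.

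Each gene is measured by the mean pixel signal of its spots, on a linear scale here called pixel units, beside the authors' present or absent call. Detection of a gene in a sample means here that 50% or more of its spots bore a present call. From array to array the median over genes ran from 8286 to 33357 pixel units, and 23 to 39 genes were detected. The dimmest spot called present had 9990.9 to 22465 pixel units, depending on the array. Gapdh was bright on every array. The names of the arrays and the order of their columns divide them into a first set of 12 and a second set of 6. The second set holds the 24-month samples, the first set those of 3 and 6 months, and the 1-month and 12-month samples are spread over both. Markers of MSC and of adipocytes are not on the array. Markers of blood cells (Itgb2, Nckap1l and Ctsg) and endothelium (Darc) were detected in 0 of 15 samples, and the epithelial keratin Krt17 in 1.

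L3mbtl2 encodes a protein of MBT domains, which read methylated histone tails. It was detected in 13 of 15 samples. By age, from young to old, that was 3 of 4, 3 of 3, 3 of 3, 2 of 3 and 2 of 2 samples. The undetected samples were sample 1 at 1 month and sample 3 at 12 months. Where every spot had to be present, L3mbtl2 was detected in 6 samples, 2 at 1 month, 3 at 3 months, 1 at 6 months and none at 12 or 24 months. With at least 1 spot present, the count was 14.

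The normalised log2 signal of L3mbtl2 at 1 month was 12.997, 13.29, 13.54 and 14.37 in samples 1, 2, 5 and 8. At 3 months it was 14.16, 13.34 and 14.69 in samples 2, 5 and 8. At 6 months it was 13.31, 13.60 and 13.17 in samples 6, 7 and 8. The 3-month samples spread as widely as the 1-month ones, and the 6-month samples lay within the 1-month range. At 12 months the values were 13.24, 13.20 and 12.83 in samples 2, 3 and 7. At 24 months they were 12.50 and 12.75 in samples 1 and 2. The 24-month samples were thus the lowest of all 15, with the nearest other value in sample 7 of 12 months.

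The group means from 1 to 24 months were 13.55 ± 0.59 (SD, n = 4), 14.07 ± 0.68 (n = 3), 13.36 ± 0.22 (n = 3), 13.09 ± 0.23 (n = 3) and 12.63 ± 0.17 (n = 2). From high to low the order of the ages was 3, 1, 6, 12 and 24 months, and the samples of neighbouring ages overlapped in each pair but the last. The higher 24-month sample had 12.75, against 12.83 in the lowest 12-month sample. The 1-month and 3-month groups were the most variable.

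**Figure D1:**
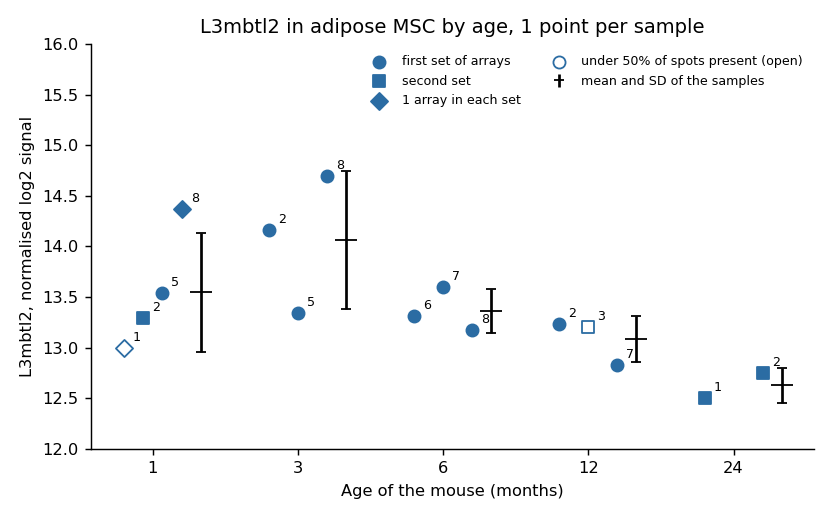
Normalised log2 signal of L3mbtl2 in each of the 15 samples by age of the mouse in months, with the sample number beside each point, symbols for the set of arrays, open symbols where under 50% of spots were present, and the mean and SD of each age. The 24-month samples, at 12.50 and 12.75, lie below all others.

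Whether L3mbtl2 differed among the ages was asked with limma over the 38 genes detected in at least 2 samples, with Benjamini-Hochberg adjustment. In the F-test over ages the p of L3mbtl2 was 0.0460 and its adjusted p 0.137, at rank 12 of 38. In that test 0 of 38 genes passed (0%), while 13 had an unadjusted p under 0.05. Under the processing alternatives its adjusted p in this F-test ran from 0.0803 to 0.942.

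At 24 months L3mbtl2 averaged 12.63, against 13.55 at 1 month. The difference was -0.92 on the log2 scale (SE 0.39, 95% interval -1.79 to -0.05), with both 24-month samples below all 4 at 1 month. This value averages 2 spots, of which the upper was called absent on both 24-month arrays, so its size is not a measured fold, and the lower spot alone gave -0.17. With all samples and both spots the p before adjustment was 0.0401 and the adjusted p from limma 0.285, at rank 5. Without sample 8 of 1 month the difference was -0.65 (adjusted p from limma 0.454). Among all genes, with all samples, 0 of 38 passed in this comparison (0%), 6 had an unadjusted p under 0.05, and the median difference was -0.0012. Quantile normalisation gives every array the same distribution of signal, so a median near 0 is largely set by the processing. The difference of -0.92 is larger than the SD of either age, but it does not pass once all genes are considered. If the transcript did fall, whether fewer of the cultured cells carried it or each carried less cannot be told apart in such bulk RNA.

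Across all 5 ages the slope of L3mbtl2 was -0.20 log2 units per doubling of age (SE 0.083, 95% interval -0.38 to -0.019). Its unadjusted p was 0.0324 and its adjusted p from limma 0.415, at rank 2 of 38. Of the slopes, 0 of 38 passed (0%) and 4 had an unadjusted p under 0.05. Their median over all genes was 0.00031, which the normalisation likewise tends to hold near 0. From the lower spot alone the L3mbtl2 slope was -0.09 (SE 0.090, adjusted p from limma 0.885).

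At 12 months L3mbtl2 averaged 13.09, against 13.55 at 1 month, a difference of -0.46 (SE 0.35, 95% interval -1.23 to 0.31, adjusted p from limma 0.995). Without sample 8 of 1 month the difference was -0.19. All 3 samples were below the 1-month mean and 1 of them below every 1-month sample. In this comparison 0 of 38 genes passed (0%), and 2 had an unadjusted p under 0.05.

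At 6 months it averaged 13.36, against 13.55 at 1 month, a difference of -0.19 (SE 0.35, 95% interval -0.96 to 0.58, adjusted p from limma 0.875). Without sample 8 of 1 month the difference was 0.084, of opposite sign. Here 1 of 38 genes passed (2.63%), which was Sbf1, named because it is the only call and so after its value was seen. At 3 months L3mbtl2 averaged 14.07, against 13.55 at 1 month, a difference of 0.52 (SE 0.35, 95% interval -0.25 to 1.29, adjusted p from limma 0.536). Only sample 8 of 3 months lay above every 1-month sample, and without it the difference was 0.20. At 3 months 0 of 38 genes passed (0%), and 5 had an unadjusted p under 0.05. The interval at each of these 3 ages holds changes in both directions.

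The authors' deposited table gives ratios of the summed signal to that of housekeeping spots. In the authors' deposited table L3mbtl2 had ratios of 0.2 to 0.705 over 6 arrays at 1 month, 0.28 to 0.595 over 3 arrays at 3 months and 0.18 to 0.39 over 3 arrays at 6 months. The authors' deposited table has 0.125 to 0.26 over 4 arrays at 12 months and 0.145 to 0.17 over 2 arrays at 24 months. Both 24-month ratios thus lie below all 1-month ratios, but they come from the same spots. Gapdh, a housekeeping gene, had 62127 to 63551 pixel units over the arrays. The ratio divides by the median of all housekeeping spots, of which those of Gapdh are a part. Where that median is as even, much of the brightness of each array stays in the ratio, which was not tested. The median over genes was 12984 and 9078.5 pixel units on the 24-month arrays and 10506 to 33357 on those of 1 month.

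The 2 spots of L3mbtl2 gave different pictures. The upper spot was present on 9 of 18 arrays and the lower on 14 of 18. By age, from 1 to 24 months, the upper spot was present on 3 of 6, 3 of 3, 1 of 3, 2 of 4 and 0 of 2 arrays. The lower spot was present on 5 of 6, 3 of 3, 3 of 3, 1 of 4 and 2 of 2 arrays. At 24 months, detection therefore rests on the lower spot alone.

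On the 2 arrays of 24 months the upper spot had 6673 and 5729.7 pixel units, where the dimmest present spots had 10951 and 11205. On the 6 arrays of 1 month it had 14709, 6937, 8270, 25594, 44998 and 30101 pixel units. The first 3 of these, both arrays of sample 1 and that of sample 2, were called absent. The lower spot had 10951 and 15691 pixel units at 24 months, both present, and the first of these was itself the dimmest present spot of its array. At 1 month it had 14203, 25650, 16432, 26113, 43495 and 31403 pixel units on the same arrays, of which only the first was absent.

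From the upper spot alone, L3mbtl2 averaged 11.50 ± 0.48 at 24 months (SD, n = 2) and 13.17 ± 0.97 at 1 month (n = 4), in normalised log2 signal. The difference was -1.67 (SE 0.59, adjusted p from limma 0.209), and both 24-month samples lay below all 1-month samples. Since the upper spot was absent on both 24-month arrays, its level there is only a bound. The dimmest present spots of those arrays averaged 13.47, above the upper spot's mean at 1 month, so no least fold can be given.

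From the lower spot alone, a choice made after seeing the data, L3mbtl2 averaged 13.76 ± 0.83 at 24 months (SD, n = 2) and 13.93 ± 0.38 at 1 month (n = 4). The difference was -0.17 (SE 0.51, adjusted p from limma 0.979), and the samples overlapped. The slope over age was -0.09 from the lower spot and -0.31 from the upper. At 3, 6 and 12 months the lower spot averaged 14.09 ± 0.80, 13.90 ± 0.35 and 13.40 ± 0.71 (SD, n = 3 each), so its lowest mean was at 12 and not at 24 months. The upper spot averaged 14.04 ± 0.63, 12.83 ± 0.60 and 12.78 ± 0.39 at those ages (n = 3 each).

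The upper minus the lower spot was -2.26 at 24 months and -0.77 at 1 month. The change in this difference, tested in limma over the 34 tested genes with 2 spots, was -1.50 (SE 0.76, unadjusted p 0.0745, adjusted p 0.253). In that test 0 of 34 genes passed and 8 had an unadjusted p under 0.05. The disagreement of the spots over age thus does not pass the threshold either.

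**Figure D2:**
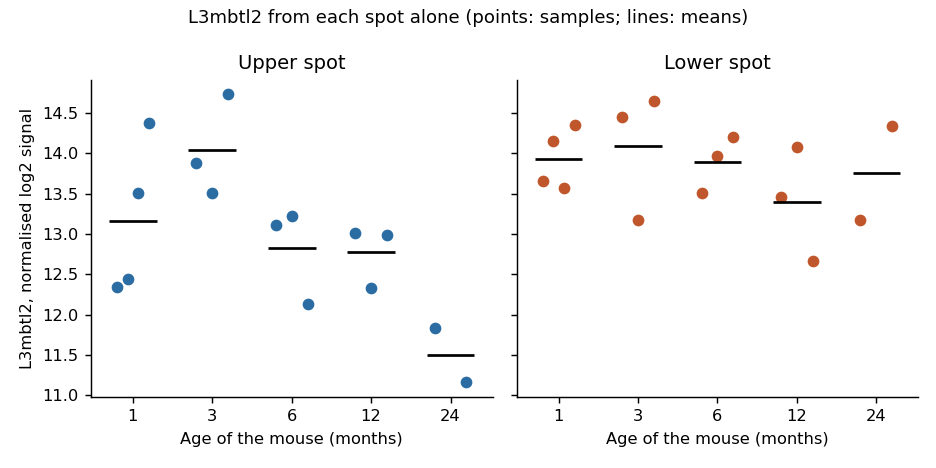
Normalised log2 signal of L3mbtl2 by age of the mouse in months from the upper spot alone (left) and the lower spot alone (right), with a point per sample and a line at each mean. At 24 months the upper spot averaged 11.50 and the lower 13.76, against 13.17 and 13.93 at 1 month.

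The set of arrays moved with age, since both 24-month samples were on second-set arrays. The upper spot of L3mbtl2 was present on 1 of 6 arrays of the second set, with a median of 6805 pixel units, and on 8 of 12 of the first, with a median of 17515. The lower spot was present on 5 of 6 and 9 of 12 arrays, with medians of 16061 and 21515. Within the second set the upper spot had 6673 and 5729.7 pixel units at 24 months and 6937, 8270 and 30101 at 1 month, so the gap to samples 1 and 2 of 1 month was small and that to sample 8 wide.

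The set was fitted over the 18 arrays, with the sample as a random block (duplicateCorrelation) for repeat arrays, since 2 samples have an array in each set. In normalised signal, averaged over both spots, the second set differed from the first by 0.07 for L3mbtl2 (SE 0.35, adjusted p from limma 0.862) with age in the fit, while 9 of 38 genes passed for the set. Fitted together with the set, the L3mbtl2 difference of 24 months from 1 month was -1.0 (SE 0.46, adjusted p from limma 0.532). Within the second set it was -0.99 (adjusted p from limma 0.797), from means of 12.63 ± 0.17 at 24 months (SD, n = 2) and 13.62 ± 0.66 at 1 month (n = 3). Within the first set, which has no 24-month sample, the differences from 1 month were 0.50 at 3 months, -0.21 at 6 months and -0.54 at 12 months. The L3mbtl2 difference at 24 months was thus about as large within the second set, with a larger SE. The second-set values of 1 month were 13.18, 13.29 and 14.38 in samples 1, 2 and 8, so sample 8 raised that mean.

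Repeat arrays of a sample show the error of the measurement. The second array of sample 1 of 1 month, in the other set, gave L3mbtl2 a value 0.37 above the first, where the median gene moved by 0.305. For sample 8 of 1 month the second array differed by 0.03. For sample 2 of 12 months, with both arrays in the first set, the second array was 0.74 below the first. That last gap, within 1 sample, is close in size to the difference between 24 and 1 months.

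**Figure D3:**
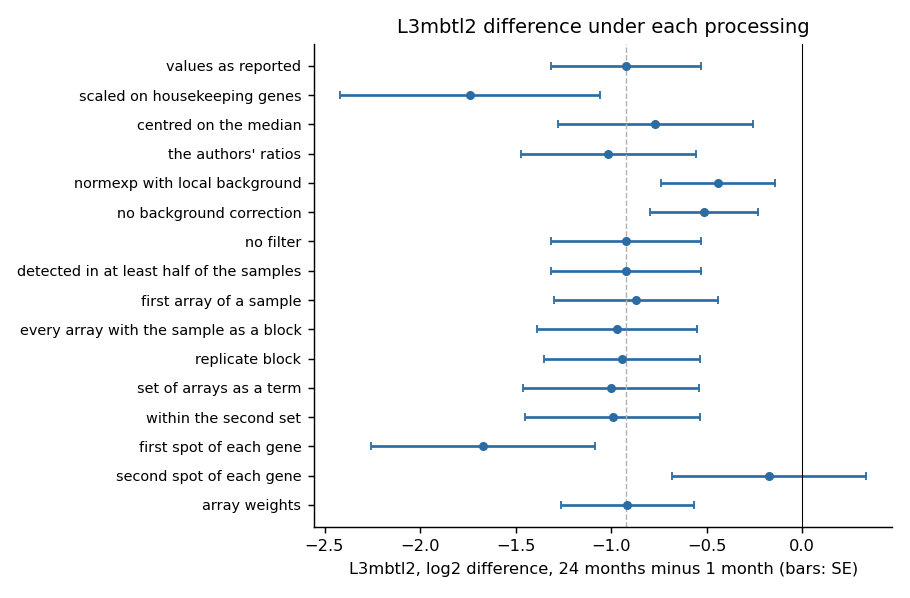
Log2 difference of L3mbtl2 at 24 months from 1 month, with its SE, for the values as reported and 15 alternative ways of processing. The difference is below 0 throughout, from -1.74 with scaling on housekeeping genes to -0.17 from the second (lower) spot alone. All of them use the same 24-month samples.

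Pcgf6 encodes the RING-finger protein that defines PRC1.6. Its spots were present on 1 of 18 arrays, that of sample 8 of 6 months, where they had 16862 and 19778 pixel units against 15708 for the dimmest present spot of the array. On the first array of sample 8 of 1 month they were as bright, at 16951 and 19929 pixel units, but were absent on an array whose dimmest present spot had 22465. Spots of Pcgf6 of about the same signal were thus called present on one array and absent on another. Over all arrays the Pcgf6 spots ran from 4814 to 16951 (upper) and from 4353 to 19929 (lower), with medians of 8389.9 and 7282 pixel units.

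By age, the Pcgf6 spots lay between 5473 and 19929 pixel units at 1 month, 7119 and 12803 at 3 months, and 4659 and 19778 at 6 months. They lay between 4353 and 9934 at 12 months and between 5308 and 6567 at 24 months. In these units the 24-month range lies below that of 3 months and overlaps those of the other ages. The arrays differ in brightness, with dimmest present spots of 10951 and 11205 at 24 months and 14869 to 20671 at 3 months. Divided by the dimmest present spot of the array, the Pcgf6 spots overlapped. They ran from 0.47 to 0.60 at 24 months and from 0.48 to 0.85 at 3 months. On all but the 1 array the spots were called absent, so no fold is given.

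E2f6 encodes a repressor of the E2F family that lacks the activating domain and binds DNA for PRC1.6. Its upper spot was present on 0 of 18 arrays, at 3998 to 11479 pixel units. Its lower spot was present on 1 array, that of sample 1 of 24 months, with 32564 pixel units. On that array the upper spot had 6274, so the spots of the gene disagree there. In the other 24-month sample the spots had 6147 (upper) and 13864 (lower) pixel units, both absent.

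The lower spot of E2f6 lies directly below a Gapdh spot, which averaged 62934 pixel units and was marked as bleeding on 18 of 18 arrays. Local background beside that E2f6 spot had a median of 22512 pixel units, against 13134 for the spot itself and 6049 for the background beside the upper spot. The lower spot was below its local background on 17 of 18 arrays, all but the one where it was called present. It exceeded the dimmest present spot on 8 arrays, and on 7 of those it was still called absent. The median log2 difference of lower from upper spot was 1.11 for E2f6, a 2.16-fold higher signal, and the lower spot was the brighter on 18 of 18 arrays. Over the 51 genes with 2 spots the median of this difference was -0.0049 and its median size 0.193.

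E2f6 had the highest such difference of the 51 genes. Among the 6 genes with a spot directly above or below Gapdh, the spot beside Gapdh was brighter than its pair by 1.13 for Wdr5, 1.10 for Mll2, 1.11 for E2f6 and 0.76 for Rb1, the 4 largest differences of all. The other 2 genes beside Gapdh, Ash1l and Yy1, had 0.07 and 0.10, and both are bright on their own. These genes were named for their position after the values were seen. For L3mbtl2 the difference was 0.24, with a range of -0.38 to 1.89 and the lower spot brighter on 13 of 18 arrays. Its lower spot lies directly below a blank that stands between Gapdh spots and averaged 25682 pixel units. That lower spot had a median of 16740 pixel units, against 15457 for its local background, and was below it on 3 of 18 arrays. The upper spot of L3mbtl2 had 13873 against 7382. At 24 months the lower spot, though called present, had 10951 and 15691 pixel units against local backgrounds of 10165 and 12833. For Rybp and Pcgf6, whose spots lie in other rows, the difference of lower from upper spot was 0.03 and -0.04. The part of the Gapdh signal in the lower spots of E2f6 and L3mbtl2 was not tested.

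**Figure D4:**
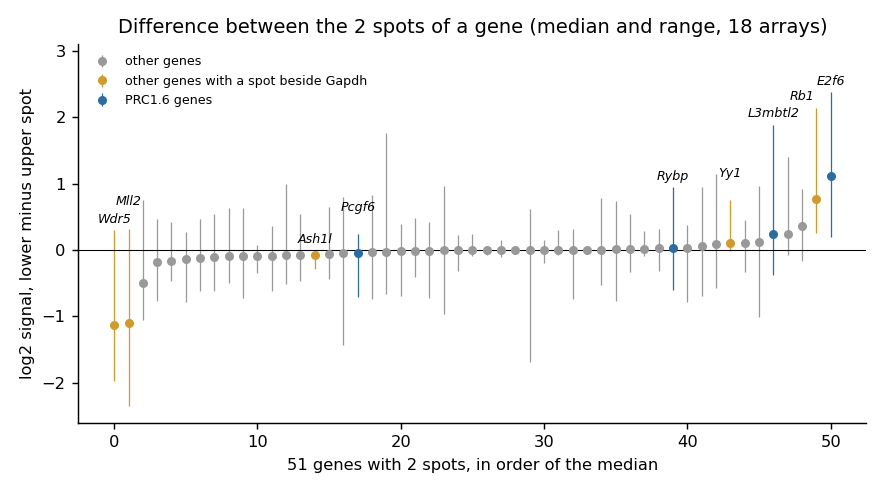
Median and range over 18 arrays of the log2 signal of the lower minus the upper spot, for the 51 genes with 2 spots in order of the median, with the PRC1.6 genes and the other genes with a spot beside Gapdh in colour. E2f6 stands highest at 1.11, L3mbtl2 lies at 0.24, and Rybp and Pcgf6 lie near 0.

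Rybp encodes a small zinc-finger protein that binds RING1 and YY1 and stimulates the ubiquitin ligase of variant PRC1. Both of its spots were present on 1 array, the second array of sample 1 of 1 month, with 13213 and 11193 pixel units. The lower spot, at 11193, was the dimmest present spot of that array. On the first array of the same sample the spots had 8398 and 7953 pixel units and were absent, where the dimmest present spot had 15964. The lone detection of Rybp was thus not repeated in its own sample.

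Across ages, the Rybp spots lay between 7953 and 15402 pixel units at 1 month, 6222 and 11968 at 3 months, and 4893 and 13353 at 6 months. They lay between 5034 and 9531 at 12 months and between 6703 and 9037 at 24 months. Spots of 14183 and 15402 pixel units on the first array of sample 8 of 1 month, the brightest for this gene, were absent.

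**Figure D5:**
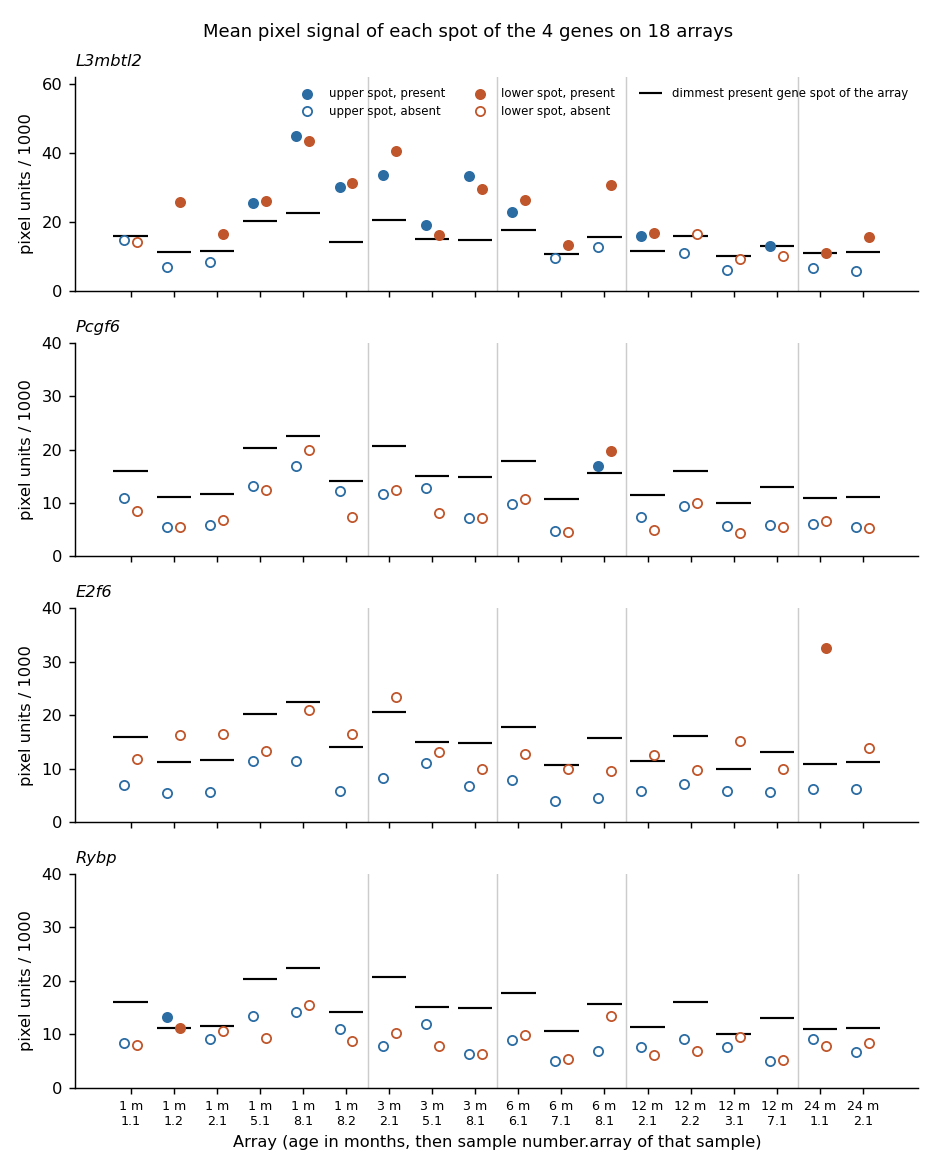
Mean pixel signal, in the scaled pixel units marked on the axis, of the upper and lower spot of L3mbtl2, Pcgf6, E2f6 and Rybp on each of the 18 arrays by age, with filled points for present and open points for absent calls and a bar at the dimmest present gene spot of the array. The upper spot of L3mbtl2 is at or above the bar on 9 of 18 arrays and its lower spot on 15. Pcgf6 and Rybp reach the bar on 1 array each, and E2f6 with its lower spot only.

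On this array, 11 genes were detected in exactly 1 sample, 15 in none and 20 in all 15. Pcgf6, E2f6 and Rybp are among the 11, so they were not among the genes tested. In a fit of all 64 genes with no filter, their adjusted p from limma was above the threshold in each comparison, with the lowest at 0.106 for E2f6 in the F-test over ages, where its unadjusted p was 0.00326. That fit compares signals mostly called absent, and its E2f6 values hold the spot beside Gapdh.

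Of 9 listed partners in PRC1.6, 4 are on the array. Rnf2, the main H2A ubiquitin ligase, was detected in 14 of 15 samples and its relative Ring1 in 1. Hdac2, a histone deacetylase, was detected in 15 and Wdr5, a scaffold of histone methyltransferases, in 1. Mga and Max, the DNA-binding pair of the complex, are on the list but not on the array. Neither of the 2 tested partners passed in any limma comparison, with adjusted p of 0.984 for Rnf2 and 0.974 for Hdac2 in the F-test over ages. At 24 months Rnf2 averaged 14.07, against 14.12 at 1 month, and Hdac2 15.60, against 15.67. Their median difference at 24 months was -0.06, beside -0.92 for L3mbtl2 and -0.0012 over all genes, which the normalisation tends to hold near 0. The L3mbtl2 value includes an upper spot called absent on both 24-month arrays, and its lower spot alone gave -0.17. The Hdac2 spots averaged 15.752 and 15.755 in raw log2 signal over the arrays. The brightest gene with 2 spots, Ppia, had 15.944, so Hdac2 had little room to rise.

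Of 12 listed canonical PRC1 genes, 11 are on the array and 6 were tested, and none passed in any comparison. In the F-test the p of Phc2 was 0.0344 and that of Cbx2 0.0369 (adjusted p from limma 0.137 each). At 24 months Phc2, a polyhomeotic subunit, differed from 1 month by -0.61 (adjusted p from limma 0.321). Between the sets of arrays, with age in the fit, Phc2 differed by -0.78 (second minus first, adjusted p from limma 0.00275), and both 24-month samples are in the second set. The chromobox gene Cbx2 had a detection in 1 of 2 samples at 24 months, against 0 of 4 at 1 month, so no fold is given for it. The median difference of the 6 genes at 24 months was -0.02, with 3 lower and 3 higher. Yy1, the DNA-binding partner of Rybp, was detected in 15 samples and differed by -0.10 at 24 months (adjusted p from limma 0.838). The Yy1 spots averaged 15.504 and 15.693 in raw log2 signal, also close to the brightest genes. No gene of the lists of other variant PRC1 complexes (11 genes) or of MBT-domain relatives (6 genes) is on the array, so L3mbtl2 could not be set beside its own relatives.

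Over the 15 samples, the genes whose normalised signal was most like that of L3mbtl2 were Rbbp4 (Pearson r 0.67, Spearman rho 0.60), Hmgb2 (r 0.50, rho 0.38) and Sirt1 (r 0.49, rho 0.59). Over the 37 other tested genes the median r with L3mbtl2 was -0.12. With the mean of each age removed, r was 0.48 for Rbbp4, 0.50 for Hmgb2 and -0.14 for Sirt1, so the likeness of Sirt1 lies between ages and not within them. Over the 11 samples of the first set r was 0.66, 0.63 and 0.44. These values are descriptions over samples that share arrays and a joint normalisation.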

How the data were processed

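Biotin-labelled RNA was hybridised to a 1-colour custom array. Per the file headers, the authors deposited the spot intensity (pixel signal summed over the spot area), a local background intensity, present or absent calls and bleeding marks. The authors' deposited ratio covers 49 genes and is the gene's mean intensity divided by the housekeeping median of the array (largest difference 0.00707). No source used here names the scanner or software. Of 23 arrays in the sheets, 5 belong to other samples and were not used.

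Intensity was divided by spot area, corrected with normexp (spot signal alone, offset 50), log2 transformed, quantile normalised over 117 gene spots, and averaged within each gene and each sample. Genes detected in at least 2 samples were tested with limma 3.58.1 (R 4.3.3), with 10 residual degrees of freedom, Benjamini-Hochberg adjustment and a threshold of 0.05. The steps were tested on simulated data. The members, lists and tests were chosen with earlier results of these data known. The rule for named genes was the 4 members, up to 3 genes per list by F-test p, and the 3 genes most like each tested member. The fit of the difference between spots was added after seeing the data. Numbers were not used to pair samples in the tests as reported. One result under this rule is not reported here. No sequence is printed.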

Additional observations from a re-analysis of the deposited data

How the results depend on the processing

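L3mbtl2 stayed without a call in all comparisons under every alternative run. Its difference at 24 months was negative in 15 of 15 alternatives (-1.74 to -0.17, adjusted p from limma 0.131 to 0.979) and, with each sample left out, ran from -1.11 to -0.65. Its slope over age was negative in 16 of 16 (-0.38 to -0.09) and from -0.26 to -0.16 with each sample left out. The 12-month difference was negative in 16 of 16 (-1.08 to -0.29) and from -0.64 to -0.19 with each left out. The 3-month difference was positive in 15 of 15 (0.16 to 0.87), and from 0.20 to 0.88 with each left out. The 6-month difference was negative in 15 of 15 (-0.34 to -0.04) and ran from -0.37 to 0.084 with each left out, turning positive without sample 8 of 1 month. The cause of these shifts was not tested. The alternatives reuse all or part of the same samples and spots, and some could not move a difference. A change of the gene filter, or leaving out a sample of an age outside the comparison, left the difference as reported (-0.92 at 24 months). The counts of signs are thus no independent support. 

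The labels do not say whether sample numbers shared between ages pair samples. Of 12 such pairs the correlation of deviations was -0.42 to 0.40, and over 0.1 in 6. Pairs of unlike number were not compared, so this does not settle the question. With the number as a replicate block, the L3mbtl2 difference was -0.94 at 24 months (adjusted p from limma 0.284), and the block changed no call.

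Counts over all 38 genes moved more. At 6 months 1 gene passed as reported. It was 0 with the authors' ratios, scaling on housekeeping genes, no filter, median centring, every array with the sample as a block, the set as a term or the first spot, and 2 with no background correction or the first array of a sample. It was 3 within the first set and with the second spot, and from 0 to 2 with each sample left out. In the F-test 0 genes passed as reported, 1 with median centring, within the second set or with the second spot, 2 within the first set, and 9 with array weights, L3mbtl2 not among them (adjusted p 0.0803). With each sample left out this count was 0 to 2. At 12 months 0 genes passed as reported and 1 within the first set and within the second. Counts for the slope, 3 months and 24 months were 0 throughout. Requiring all spots present left L3mbtl2 detected in 6 samples, Pcgf6 in 1, and E2f6 and Rybp in 0. The cause was not tested.

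Groups of 2 to 4 samples, and signals near the limit of the calls, set the precision.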
